A study of Mus musculus with 2 samples.

Results

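The 10 genes described here carry out or direct the first steps of B cell development: Vpreb1, Igll1 and Vpreb3 of the pre-B cell receptor group, the recombination genes Rag1, Rag2 and Dntt, the transcription factors Ebf1 and Pax5, and the receptor signalling chains Cd79a and Cd79b. They were chosen by name, as 10 of the 28482 genes in the deposited matrix, and were followed across B precursors, mature B cells, plasmacytoid dendritic cells and progenitors. CD45+ cells, which are leukocytes and microglia, had been isolated on day 15 of experimental autoimmune encephalomyelitis (EAE), a model in which T cells attack myelin, from spinal cords of the mouse strain C57BL/6. All 4 mice had EAE. In the untreated group 2 mice received no inhibitor, and in the other group 2 mice received an inhibitor, of which the sources used here give neither name nor dose. Each mouse carried its own antibody hashtag, and the cells of all 4 were pooled on 1 BD Rhapsody run and amplified by TAS-Seq, a method that amplifies the cDNA of the whole transcriptome of single cells.

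A developing B cell joins the V, D and J segments of its immunoglobulin heavy chain gene by cutting the DNA with the recombinase made by Rag1 and Rag2, while terminal transferase, the product of Dntt, adds bases at the joints. A heavy chain that can be made pairs with the surrogate light chain, built from the Vpreb1 and Igll1 products, and with the signalling chains Cd79a and Cd79b to form the pre-B cell receptor. That receptor drives a burst of division, after which the recombinase is made again for the light chain genes. In the mouse these steps take place mainly in the bone marrow, under the control of factors that include Ebf1 and Pax5.

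After filtering, 19256 cells were kept, 4322 and 4549 of the untreated and 5458 and 4927 of the inhibitor-treated mice. Their counts summed to between 49508727 and 62005301 per mouse, with a median of 8247 to 8618 counts per cell. No cell barcode was shared between mice (0 of 21518 columns with a single hashtag). Doublet calls removed 8.49% and 8.21% of the untreated mice's cells and 3.47% and 4.72% of the treated mice's, so that removal differed between the groups. The B precursors were 433 cells (53 and 36 from untreated, 222 and 122 from treated mice), the mature B cells 443 (86 and 178, 89 and 90), the plasmacytoid dendritic cells 683 (106 and 354, 78 and 145) and the progenitors 125 (12 and 28, 44 and 41). The names mean only that the cells resemble the class in marker genes, and none of the 10 genes was used to cluster or name the cells. In the B precursors, the class markers Myb, Chchd10 and Sox4 were detected in 79.2%, 78.5% and 70.7% of cells. Other markers of the class were rare: Lef1 and Bst1 were detected in 18.9% each, Erg in 3.7% and Arpp21 in 1.39%. Enpep was also detected in few cells, and the remaining class markers in 48.5% to 67.2%. Ighm, a marker of the B lineage, was detected in 99.8% of the B precursors. It does not set them apart, being detected in 97.8% of the plasmacytoid dendritic cells and 55.2% of the progenitors. Ms4a1, the CD20 gene, was detected in 89.4% of the mature B cells, Siglech in 99.1% of the plasmacytoid dendritic cells and Mpo in 72.0% of the progenitors. The least detected markers of these classes were, in the same order, Cxcr5 and Gpr183 (19.9% each), Klk1 (42.6%) and Cpa3 (6.4%). Levels are given in CPM, the gene's count per 1000000 counts of the same cells. CPM is not divided by transcript length, so levels are compared between cells and mice and never between genes. Where values stand on both sides of "against" for a class, the untreated mice come first and the treated mice second, each in the order of their numbers.

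The base sequences just before the start sites of 3 genes are shown because the results below turn on these genes: Igll1 and Rag1 took opposite directions between cycling and other B precursors, and most Dntt counts lay outside the B lineage. They are the 250 bases before the RefSeq transcription start on GRCm38.p6, written along the gene's strand, for Igll1 chr16:16863986-16864235 (minus strand), for Rag1 chr2:101649533-101649782 (minus strand) and for Dntt chr19:41029025-41029274 (plus strand). Capitals mark matches on either strand to CAGGTG, the E-box core bound by E proteins such as the Tcf3 product, and to CCCNNGGG, the palindromic core of sites bound by the Ebf1 protein.
Igll1: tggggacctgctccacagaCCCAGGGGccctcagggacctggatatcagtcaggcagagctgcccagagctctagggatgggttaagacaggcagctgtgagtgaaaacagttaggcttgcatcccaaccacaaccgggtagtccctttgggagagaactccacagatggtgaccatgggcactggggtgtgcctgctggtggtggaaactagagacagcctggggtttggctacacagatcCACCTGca
Rag1: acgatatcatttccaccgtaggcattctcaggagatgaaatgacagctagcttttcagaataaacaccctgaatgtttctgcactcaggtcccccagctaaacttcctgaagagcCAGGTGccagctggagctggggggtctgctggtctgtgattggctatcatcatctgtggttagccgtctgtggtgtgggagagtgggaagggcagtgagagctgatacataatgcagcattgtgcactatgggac
Dntt: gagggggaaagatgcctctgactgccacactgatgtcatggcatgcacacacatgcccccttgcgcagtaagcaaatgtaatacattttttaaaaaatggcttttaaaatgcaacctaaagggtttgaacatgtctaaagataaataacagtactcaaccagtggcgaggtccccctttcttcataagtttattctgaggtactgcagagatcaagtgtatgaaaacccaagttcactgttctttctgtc
In Igll1 the CAGGTG match is on the opposite strand and begins 8 bases before the start, and the CCCNNGGG match begins 231 bases before it; the matches do not overlap. In Rag1 CAGGTG begins 135 bases before the start. The Dntt window holds neither motif. RefSeq start sites were found for 9 of the 10 genes. CAGGTG was present before 4 of the 9, the others being Vpreb1 and Cd79a, and before 17.2% of all 32851 mouse start sites in the same table. CCCNNGGG was present before 1 of the 9 and before 11.8% of all start sites. A match describes letters and not a bound site.

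Vpreb1, which encodes the V-like part of the surrogate light chain (chromosome 16, 16868403 to 16870843, minus strand, GRCm38), was counted mainly in B precursors. Its level there was 462 and 190 CPM in the untreated and 124 and 377 CPM in the treated mice, and the groups overlapped. No mature B cell had a count in any mouse (0 of 443 cells, which allows a share of up to 0.677% of cells with a count). B precursors held 88.5% of the gene's 1179 counts in kept cells. Few precursor cells made up that level: 44 of 433 had a count, and the highest cell had 78. Vpreb2, a closely similar gene on the same chromosome whose reads the counting may have split with Vpreb1, was at 152 and 0 CPM in the untreated mice and 19.98 and 57.3 CPM in the treated ones and was counted in no cell outside the B precursors.

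Igll1, which encodes lambda 5, the C-like part of the surrogate light chain (chromosome 16, 16860671 to 16863985, minus strand), followed the same pattern. Its level in B precursors was 404 and 85.7 CPM in the untreated mice and 223 and 293 CPM in the treated ones. The untreated mice were the highest and the lowest of the 4. In mature B cells it was 0 CPM in 3 mice and 2.51 CPM in inhibitor-treated mouse 2, where the count came from 1 cell. B precursors held 95.7% of its counts, in 52 of the 433 cells. Of the 44 precursor cells with Vpreb1, 38 also had Igll1.

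Vpreb3, a related chain that binds the newly made heavy chain inside the cell (chromosome 10, 75943057 to 75949657, plus strand), was found in nearly every B precursor and stayed detectable in mature B cells. In precursors it was at 2061 and 2875 CPM in the untreated mice and 2278 and 2084 CPM in the treated ones, and 409 of 433 cells had a count. In mature B cells it was at 346 and 253 CPM in the untreated mice and 672 and 390 CPM in the treated ones, so that each precursor value lay above each mature B value. Plasmacytoid dendritic cells and progenitors were between 0 and 3.72 CPM. Mature B cells held 13.1% of the gene's counts and B precursors 83.4%.

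Rag1, which encodes the DNA-cutting subunit of the recombinase (chromosome 2, 101638282 to 101649501, minus strand), was at 234 and 366 CPM in the B precursors of the untreated mice and 197 and 143 CPM in those of treated mice. Both treated mice lay below both untreated mice. In mature B cells it was at 0 CPM in both untreated mice and at 6.09 and 2.51 CPM in the treated ones, from 3 cells in all. No progenitor had a count (0 of 125 cells, which allows up to 2.4%). B precursors held 93.8% of the Rag1 counts, in 147 of the 433 cells.

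Rag2, which encodes the partner subunit of the recombinase (chromosome 2, 101624718 to 101632529, plus strand), was spread over many cell types at a low level. In B precursors it was at 58.0 and 36.1 CPM in the untreated mice and 56.5 and 30.9 CPM in the treated ones, and each group held a high and a low mouse. In plasmacytoid dendritic cells it was at 19.6 and 26.4 against 17.6 and 15.5 CPM, in mature B cells at 14.6 and 5.30 against 19.8 and 11.3 CPM, and in progenitors at 7.44 and 3.72 against 10.4 and 7.46 CPM. The mature B range overlapped both others, the progenitor range lay below that of the plasmacytoid dendritic cells, and all lay below the precursor range. Only 16.8% of its counts were in B precursors and 57.7% were outside the 4 classes, and 68.7% of its nonzero values in the matrix were single counts. The gene B230118H07Rik overlaps Rag1 on the same strand and Rag2 on the opposite strand, and the use of strand in the authors' counting is not stated. It was at 0 to 26.2 CPM in B precursors, 6.77 to 30.6 CPM in plasmacytoid dendritic cells and 7.44 to 78.8 CPM in progenitors, so Rag1 and Rag2 values are uncertain by the reads these genes could share.

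Dntt, which encodes terminal transferase (chromosome 19, 41029275 to 41059525, plus strand), was counted mainly in plasmacytoid dendritic cells. It was at 223 and 268 CPM there in the untreated mice and 272 and 219 CPM in the treated ones, and the treated mice enclosed the untreated ones. These cells held 76.9% of the gene's counts and 85.3% of the kept cells with a count, 360 of their 683 cells being positive. In B precursors it was at 88.0 and 13.5 CPM in the untreated mice and 0.97 and 104 CPM in the treated ones, from 3, 2, 1 and 5 cells, and 1 cell held 44.7% of all precursor counts. Among the 443 mature B cells 1 count was found. In progenitors it was at 7.44 and 0 against 8.89 and 35.7 CPM, from 6 cells. Outside these classes 299 of 447 counts came from a single cell of inhibitor-treated mouse 1, which clustered with cycling T cells and had 31 counts of Flt3, a receptor of early progenitors, and 1 of Cd3e.

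Ebf1, a factor that commits cells to the B lineage (chromosome 11, 44617317 to 45008091, plus strand), was higher in B precursors than in mature B cells in all 4 mice. It was at 564 and 1232 CPM in the precursors of untreated and 607 and 518 CPM in those of treated mice, against 204 and 200, and 237 and 178 CPM, in mature B cells. Pax5, which maintains B cell identity (chromosome 4, 44524757 to 44710487, minus strand), was at 500 and 794 against 595 and 571 CPM in precursors as a whole and at 572 and 370 against 714 and 417 CPM in mature B cells, and these ranges overlapped. In the 331 precursors that were not cycling, a state defined with its own comparison below, Pax5 was at 906 and 840 against 767 and 935 CPM. Each of these lay above each mature B value. Cycling cells were taken out of the precursors only, and the part of cycling or depth in this difference was not tested. Both genes were at 0 to 3.66 CPM in plasmacytoid dendritic cells and progenitors. Other genes overlap both in the annotation, among them Gm12158 in Ebf1 and Mir5120 in Pax5.

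Cd79a, which encodes Ig-alpha (chromosome 7, 24897381 to 24902197, plus strand), was higher in mature B cells than in precursors taken as a whole. It was at 1955 and 2694 CPM in the precursors of untreated and 2107 and 1920 CPM in those of treated mice, and at 2919 and 3136 against 3735 and 3035 CPM in mature B cells, with no overlap. In the precursors that were not cycling it was at 2892 and 2892 against 3031 and 3268 CPM, which overlapped the mature B range. Within the same mouse the mature B value was still the higher one, except in inhibitor-treated mouse 2. Cd79b, which encodes its partner Ig-beta (chromosome 11, 106311341 to 106314762, minus strand), was at 1333 and 1886 against 1420 and 1150 CPM in precursors and 1532 and 1306 against 1719 and 1548 CPM in mature B cells, and these ranges overlapped. In the precursors that were not cycling, Cd79b was at 2426 and 2037 against 2277 and 2128 CPM, above each mature B value. Cd79b was also counted outside the B lineage. It was at 62.2 and 45.5 against 49.2 and 75.4 CPM in plasmacytoid dendritic cells and at 26.0 and 32.3 against 54.8 and 26.7 CPM in progenitors, while Cd79a was at 2.71 to 13.6 and 0 to 20.5 CPM there. Of the 86 Cd79a counts in plasmacytoid dendritic cells, 67.4% came from 1 cell. In the mature B cells of inhibitor-treated mouse 1, Igkc alone took 105719 of every 1000000 counts, against 8013 to 16827 in the other mice, which lowers the CPM of other genes in that mouse.

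**Figure D1:**
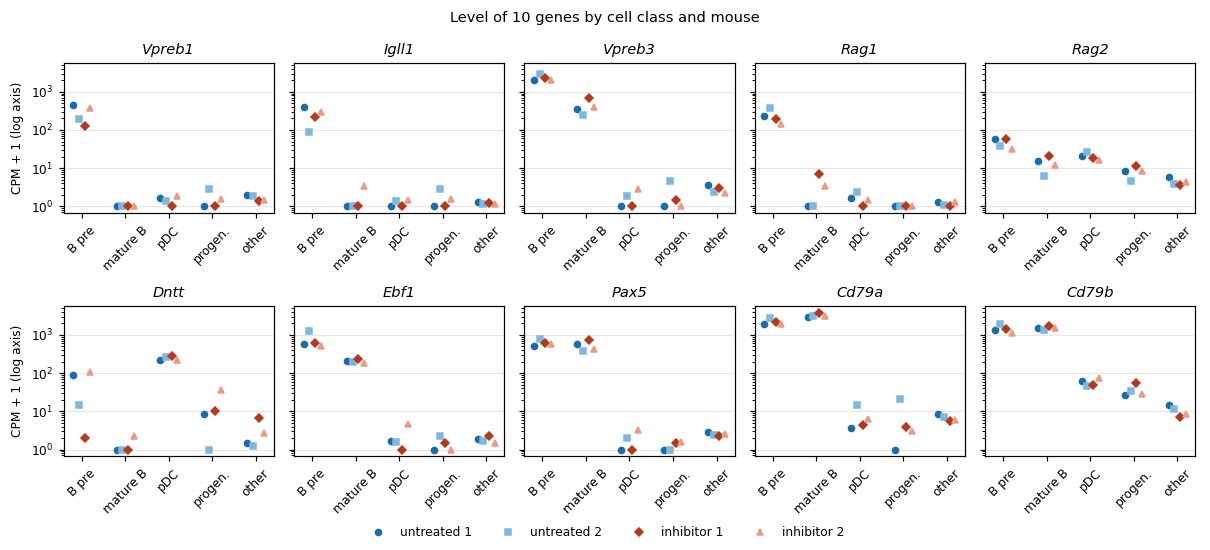
Level of each of the 10 genes in CPM + 1 (log axis) in B precursors (B pre), mature B cells, plasmacytoid dendritic cells (pDC), progenitors (progen.) and all other kept cells, with 1 point per mouse. Vpreb1, Igll1 and Rag1 are high in B precursors, Dntt lies at 219 to 272 CPM in the pDC of all 4 mice, and Cd79a and Cd79b are high in both B lineage classes.

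**Figure D2:**
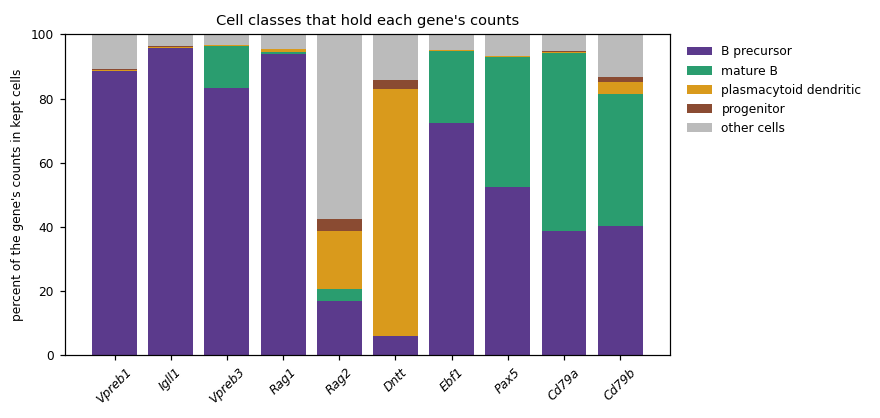
Percent of each gene's counts in kept cells that lay in each cell class, over all 4 mice. B precursors held 95.7% of the Igll1 counts and 93.8% of the Rag1 counts, plasmacytoid dendritic cells 76.9% of the Dntt counts, and cells outside the 4 classes 57.7% of the Rag2 counts.

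Because the classes differ in depth (median 5767 counts per B precursor, 6340 per mature B cell, 11777 per plasmacytoid dendritic cell and 32711 per progenitor), the share of cells with a count was also taken after thinning each cell to 2000 counts. No cell of these 4 classes was too shallow. In B precursors Vpreb1 was then detected in 6.00% of cells, Igll1 in 7.62%, Rag1 in 25.9%, Vpreb3 in 88.9% and Cd79a in 89.6%. In T cells (6659 cells, median 7265 counts before thinning), which should lack these genes, the same shares were 0.0901%, 0.0751%, 0.0601%, 0.285% and 0.871%. The Dntt share was 26.6% in plasmacytoid dendritic cells, 1.62% in B precursors and 0.150% in T cells. The Cd79b share was 6.00% in plasmacytoid dendritic cells and 7.20% in progenitors, against 1.35% in T cells, 0.265% in neutrophils and 3.79% in microglia. The Cd79a share was 0.293% in plasmacytoid dendritic cells and 0.8% in progenitors, at or below the share in T cells, and is background by that measure. Without thinning, Dntt was detected in 52.7% of the plasmacytoid dendritic cells and Rag1 in 33.9% of the B precursors.

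Within the B precursors, Rag1 was detected in a smaller share of the cells with Vpreb1 or Igll1 than of all precursors, by a margin that varied between mice. Of the 433 cells, 50 had Vpreb1 or Igll1 without Rag1, 139 had Rag1 without either, 8 had both and 236 had neither. Rag1 was thus in 8 of 58 cells with Vpreb1 or Igll1 (13.8%) and in 33.9% of all precursors. By mouse it was in 0 of 9 and 0 of 3 such cells of the untreated mice, where 35.8% and 44.4% of all precursors had it, and in 3 of 22 (13.6%) and 5 of 24 (20.8%) of the treated mice, where 33.8% and 30.3% had it. These cell counts are small, and the difference was not tested. The cells with Vpreb1 or Igll1 alone were deeper (median 20017 counts) than those with Rag1 alone (5751). After thinning to 2000 counts, 42 cells had Vpreb1 or Igll1, 112 had Rag1 and 5 had both, so that Rag1 was in 11.9% of the former and 25.9% of all precursors. Rag2 was detected in 31 of the 147 cells with Rag1 (21.1%), near its share of all precursors (20.1%). Iglc1, an immunoglobulin lambda light chain gene, was detected in 38 of the 147 cells with Rag1 and in 1 of the 52 with Igll1. The immunoglobulin kappa gene Igkc was detected in 109 of the 147 and 34 of the 52; Igkc values below 4 do not occur in the matrix, so a cell without a count is only listed at 0.

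Cells of the B precursor class were then divided into cycling and other cells, a cycling cell having at least 3 of 10 division genes (Mki67, Top2a and others, none of them a member) detected. Cycling cells were 20 of 53 and 3 of 36 in untreated mice, 37.7% (25.9 to 51.2, 95% Wilson interval) and 8.33% (2.87 to 21.8), and 44 of 222 and 35 of 122 in treated mice, 19.8% (15.1 to 25.6) and 28.7% (21.4 to 37.3). The groups overlapped. Untreated mouse 2, with 3 cycling cells, was left out of the comparison, which therefore rested on 3 mice with the mouse as a block.

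As a share of their counts (CPM), cycling precursors had more Vpreb1 and Igll1 than the other precursors of the same mouse. By the same measure they had less of Rag1, Ebf1, Pax5, Cd79a, Cd79b and Vpreb3. Igll1 was at 510 CPM in cycling against 215 CPM in other cells of untreated mouse 1, 411 against 30.6 CPM in inhibitor-treated mouse 1 and 374 against 159 CPM in inhibitor-treated mouse 2 (log2 fold 2.13 ± 0.42 SE, edgeR adjusted p = 0.00548). Vpreb1 was at 492 against 409, 240 against 4.94 and 511 against 155 CPM in the same mice (2.15 ± 0.63, edgeR adjusted p = 0.0401). Both genes were higher in the cycling cells of each of the 3 mice. All 78 Vpreb1 counts of the other cells of untreated mouse 1 came from 1 cell, and the Vpreb1 fold was 3.24 without that mouse. The Vpreb1 call did not hold without inhibitor-treated mouse 1 (1.13, edgeR adjusted p = 0.0547) or 2 (2.42, 0.0541) or with at least 5 division genes required (2.05, 0.0703).

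Rag1 moved the other way. It was at 69.9 CPM in cycling against 529 CPM in other cells of untreated mouse 1, 35.6 against 362 CPM in inhibitor-treated mouse 1 and 8.45 against 367 CPM in inhibitor-treated mouse 2 (log2 fold -3.63 ± 0.42, edgeR adjusted p = 0.000111). Cd79b was at 725 against 2426, 586 against 2277 and 562 against 2128 CPM (-1.77 ± 0.13, edgeR adjusted p = 3.47e-06), and Cd79a at 1433 against 2892, 1207 against 3031 and 1109 against 3268 CPM (-1.20 ± 0.13, edgeR adjusted p = 6.17e-05). Ebf1 (-1.16 ± 0.17), Pax5 (-1.20 ± 0.20) and Vpreb3 (-0.58 ± 0.12) also fell in all 3 mice, with edgeR adjusted p of 0.000841, 0.00175 and 0.00664. The Vpreb3 call did not hold without inhibitor-treated mouse 1 (edgeR adjusted p = 0.0866) or 2 (0.0612) or with at least 5 division genes (0.0628). Rag2 (0.48 ± 0.68, edgeR adjusted p = 0.698) and Dntt (1.296 ± 0.742, 0.291) did not pass, and their direction differed between mice. Of the 10 genes, 2 passed as higher and 6 as lower, beside 8.64% of 7613 tested genes higher and 5.87% lower (14.5% in either direction), with a median log2 fold of -0.02 over all genes.

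**Figure D3:**
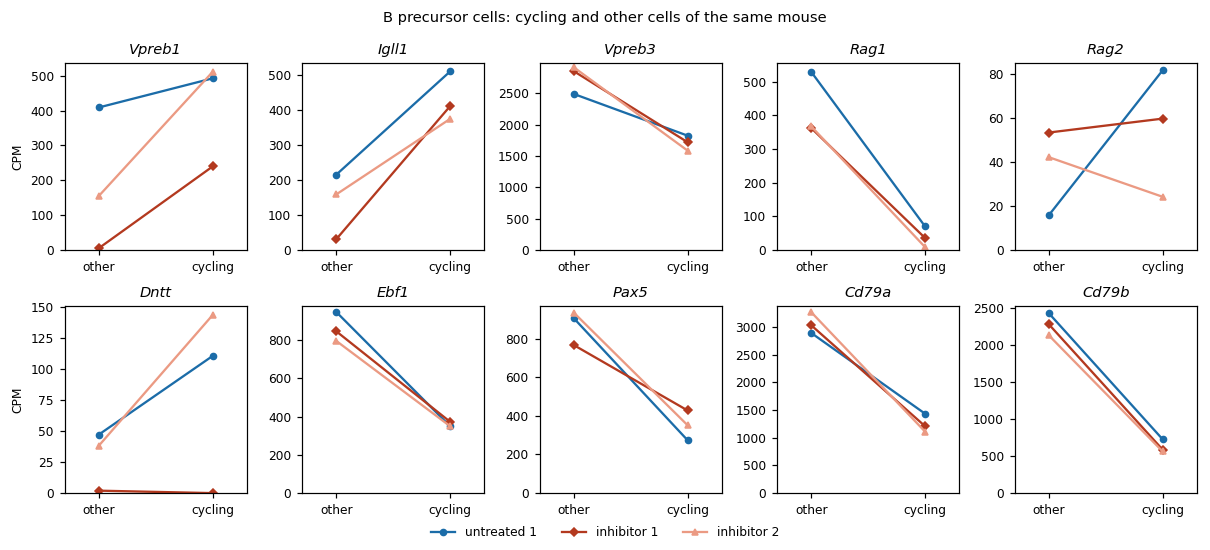
Level in CPM of each gene in the other and the cycling B precursor cells of the same mouse, joined by a line, for the 3 mice with at least 10 cells in both states. Igll1 rises and Rag1, Ebf1, Pax5, Cd79a and Cd79b fall in each of the 3 mice, while Rag2 and Dntt go in different directions.

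Cycling cells were also deeper, with a median of 12490 counts against 4820. In inhibitor-treated mouse 1 the 44 cycling cells held 1039626 counts and the 178 other cells 1012879. A lower CPM in cycling cells is thus a smaller share of their counts and by itself does not show whether a cell holds fewer counts of the gene. The part of depth in these folds was not tested. Neutrophil transcripts also moved with the state in inhibitor-treated mouse 1: the 14 neutrophil markers summed to 7624 CPM in its cycling and 839 CPM in its other cells, against 283 and 1027 CPM in untreated mouse 1 and 331 and 921 CPM in inhibitor-treated mouse 2. S100a8 and S100a9 were at 2082 and 2879 CPM in the cycling cells of inhibitor-treated mouse 1, each from 4 of 44 cells, and were listed at 0 in its other cells. Without that mouse Igll1 (log2 fold 1.37), Rag1 (-3.87), Ebf1, Pax5, Cd79a and Cd79b still passed edgeR's test. At 2000 counts per cell, Igll1 was detected in 26 of 102 cycling and 7 of 331 other cells (25.5% and 2.11%), Vpreb1 in 17.6% and 2.42%, Rag1 in 8.82% and 31.1%, Rag2 in 14.7% and 6.95%, and Vpreb3 in 88.2% and 89.1%. A finer clustering, which also left the 10 genes out, divided the class into 333 and 100 cells, and 94 of the 102 cycling cells lay in the smaller cluster. There Igll1 was at 611 and 244 CPM in the untreated mice and 438 and 372 CPM in the treated ones. In the larger cluster Igll1 was at 0 and 62.2 against 0.99 and 160 CPM, and Rag1 at 560 and 420 against 367 and 373 CPM.

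Genes that work with the 10 also differed between the states. Of 22 genes of pre-B and B cell receptor signalling tested, 11 were lower and 1 higher in cycling cells (median log2 fold -1.05). They included the heavy chain gene Ighm (-1.35 ± 0.09), the inhibitory receptor gene Cd72 (-1.62 ± 0.15) and the kinase gene Syk (-1.84 ± 0.24). The 1 higher gene, named after its value was seen, was Vpreb2 (2.93 ± 0.73). Of 24 B lineage transcription factors 10 were lower and 1 higher (median -1.09), among them Spib (-2.01 ± 0.17), Foxo1, which activates the Rag genes (-1.63 ± 0.24), Sox4 (-1.61 ± 0.26) and Myb (-1.03 ± 0.15). Of 17 tested stage receptors 10 were lower and 1 higher (median -1.22), with Ly6d (-3.55 ± 0.19), Cd2 (-3.23 ± 0.44), Il2ra (-2.52 ± 0.45) and Ms4a1 (-5.44 ± 0.74) lower. The higher genes of these lists, likewise named after their values were seen, were the factor gene Lef1 (1.69 ± 0.37) and Cd24a (0.57 ± 0.14). Of 7 tested genes for break joining, Hmgb1 (2.17 ± 0.13) and Hmgb2 (2.70 ± 0.17), DNA-bending proteins that assist the recombinase, were higher and the polymerase gene Polm (-1.60 ± 0.44) lower. Of 14 cell cycle genes that had not defined the state, 11 were higher and 1 lower. All of these passed edgeR's test at an adjusted p of 0.05 over all genes. Of the 7613 genes tested, 8.64% were higher and 5.87% lower, with a median log2 fold of -0.02. The part of depth in the folds of these lists was not tested. Among the 5 genes with the smallest p, Iglc1 was at 0, 0 and 1.21 CPM in the cycling cells against 1488, 1220 and 847 CPM in the other cells of the 3 mice, and Iglc2 at 0, 1.92 and 0 against 1079, 711 and 592 CPM.

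The comparison of inhibitor-treated with untreated mice asked whether treatment changed these genes within a class. None of the 10 genes passed edgeR's test in a class with all 4 mice. In B precursors 8786 genes were tested, edgeR called 0 (0%), DESeq2 called 0, and 276 (3.14%) had an unadjusted edgeR p under 0.05. The log2 fold of treated over untreated mice was -0.76 ± 0.37 for Rag1 (unadjusted p = 0.0750, edgeR adjusted p = 0.9995), -0.62 ± 0.37 for Ebf1, -0.39 ± 0.61 for Vpreb1, 0.04 ± 0.63 for Igll1 and -0.14 ± 0.23 for Vpreb3. For Dntt it was -0.071 ± 1.495, and for the remaining members between -0.28 and -0.10. In these precursors the summed level of the 14 neutrophil markers was 549 and 496 CPM in the untreated mice and 4276 and 553 CPM in the treated ones, with 8, 7, 12 and 9 of the 14 counted. S100a9 was listed at 0 in all mice but inhibitor-treated mouse 1 (1458 CPM). The 14 T cell markers summed to 93.6 and 420 against 266 and 232 CPM. The part of these counts in the results was not tested. Without untreated mouse 1 edgeR called 97 genes and without inhibitor-treated mouse 2 it called 6, none of them a member. With inhibitor-treated mouse 1 left out, the Rag1 fold was -1.02 and that of Ebf1 -0.74.

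Of the gene lists, none had a gene that passed in B precursors. Of 22 genes of receptor signalling 16 had a negative fold (median -0.16, led by Pik3ap1 at -0.77 ± 0.37), of 23 transcription factors 19 (-0.16, led by Ikzf3 at -0.95 ± 0.54), of 17 stage receptors 10 (-0.04, led by Il2ra at -0.77 ± 0.44), and of 12 genes of break joining 4 (0.08, led by Nhej1 at -1.04 ± 0.86). Of 24 cell cycle genes 23 had a positive fold (0.49, led by Mcm6 at 1.06 ± 0.44), beside a median of 0.04 over all genes. The share of cycling cells, given above, was lowest in untreated mouse 2 (8.33%) and highest in untreated mouse 1 (37.7%), with both treated mice between them. Mki67 likewise was at 1133 and 131 CPM in the precursors of untreated mice and 794 and 719 CPM in those of treated mice.

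In mature B cells Vpreb3 had a log2 fold of 0.90 ± 0.33 (unadjusted p = 0.0210, edgeR adjusted p = 0.9989), and both treated mice were above both untreated mice. The summed level of the 14 B precursor markers in these cells was 685 and 680 CPM in the untreated mice and 980 and 825 CPM in the treated ones. Of the 14, 12, 13, 12 and 11 were counted. Single markers did not all go with the sum. Sox4 had a log2 fold of 1.98 ± 0.49 (unadjusted p = 0.0025, edgeR adjusted p = 0.9989), while Cd93 was at 18.0 and 19.9 against 50.2 and 2.5 CPM. The 14 neutrophil markers summed in mature B cells to 1449 and 2029 against 586 and 5949 CPM, and the 14 T cell markers to 1214 and 535 against 231 and 733 CPM. The 7 plasma cell markers summed to 204 and 995 against 2525 and 311 CPM, highest in the mouse with the highest Igkc level. The part of any of these markers' cell types in the Vpreb3 value or the other folds of mature B cells was not tested. Cd79a (0.22 ± 0.18), Cd79b (0.26 ± 0.19), Pax5 (0.34 ± 0.33), Ebf1 (0.10 ± 0.29) and Rag2 (0.74 ± 0.95) had p above that, and Vpreb1, Igll1, Rag1 and Dntt had too few counts to test. Of 8497 genes edgeR called 0 (0%), DESeq2 2, and 357 (4.20%) had an unadjusted p under 0.05. In plasmacytoid dendritic cells the Dntt fold was -0.02 ± 0.18, the Rag2 fold -0.50 ± 0.46, the Cd79b fold 0.24 ± 0.32 and the Cd79a fold -0.91 ± 0.87. There edgeR called 0 of 10608 genes (0%), DESeq2 8, and 482 (4.54%) had an unadjusted p under 0.05. In progenitors Cd79b (0.42 ± 0.58), Rag2 (0.85 ± 1.07) and Dntt (3.81 ± 1.57, unadjusted p = 0.0358, edgeR adjusted p = 0.9995, from 6 cells) could be tested, beside 0 of 10129 genes called (0%), 0 by DESeq2 and 369 (3.64%) with an unadjusted p under 0.05. There the 14 neutrophil markers summed to 525 and 29212 against 2179 and 5246 CPM. The 6 basophil or mast cell markers summed to 1328 and 21.1 against 42.5 and 44.8 CPM, and untreated mouse 1 had only 12 progenitors. The part of these counts in the progenitor folds was not tested. Leaving out 1 mouse gave 2 to 27 called genes in mature B cells (most without inhibitor-treated mouse 1), 1 to 80 in plasmacytoid dendritic cells (most without inhibitor-treated mouse 2) and 10 to 31 in progenitors (most without untreated mouse 2).

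**Figure D4:**
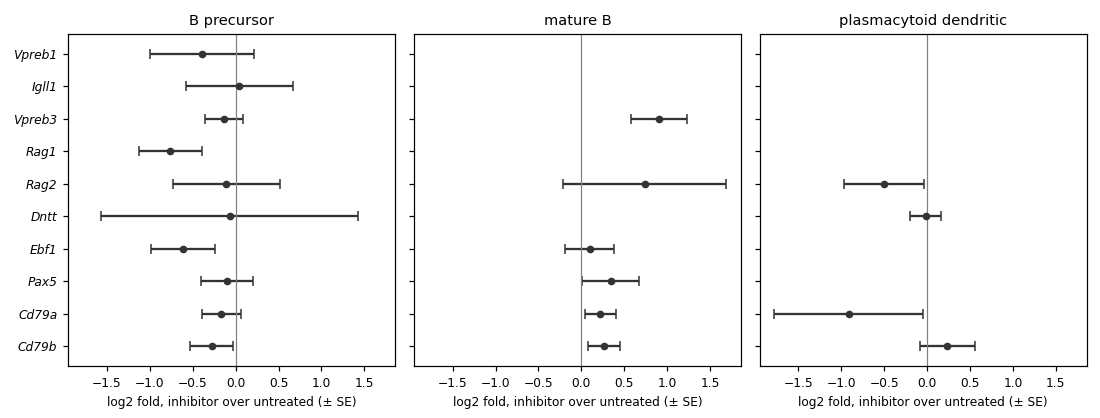
Log2 fold of inhibitor-treated over untreated mice with its standard error (SE) for the genes that could be tested in B precursors, mature B cells and plasmacytoid dendritic cells, from sums of 2 mice a group. No gene passed the test, and the largest fold in size among B precursors was -0.76 for Rag1.

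Whether a fold differed between classes was tested as such. For Vpreb3 the treatment fold in B precursors was lower than that in mature B cells by 0.96 on the log2 scale (-0.96 ± 0.40, unadjusted p = 0.0392, edgeR adjusted p = 0.9953). For the other 5 members tested in both classes the difference lay between -0.86 and -0.35, against a median of 0.20 over the 9908 genes tested. Against plasmacytoid dendritic cells it was -1.03 ± 1.55 for Dntt and between -0.46 and 0.65 for Rag2, Cd79a and Cd79b. Without inhibitor-treated mouse 2 the Dntt difference was -5.54, and Dntt was then counted in only 1 treated precursor cell. No member passed in either with all 4 mice, where edgeR called 0 of 9908 genes (0%; 415, or 4.19%, with an unadjusted p under 0.05) and 2 of 11368 (0.0176%; 3.29% with an unadjusted p under 0.05). In T cells and neutrophils no member passed either: edgeR called 1 of 16597 genes (0.00603%; 3.93% with an unadjusted p under 0.05) and 0 of 14828 (0%; 4.83%), and DESeq2 3 higher and 23 lower in T cells and 1 higher and 9 lower in neutrophils.

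The mice also differed in how many of their cells were B precursors. B precursors made up 1.23% (0.94 to 1.60, 95% Wilson interval) and 0.79% (0.57 to 1.09) of the kept cells of untreated and 4.07% (3.57 to 4.62) and 2.48% (2.08 to 2.95) of those of treated mice. That is 3.24-fold higher, or 1.70 ± 0.85 on the log2 scale, and did not pass over 12 classes (unadjusted p = 0.0575, edgeR adjusted p = 0.235). With neutrophils, progenitors and erythroid cells taken out of the denominator the log2 fold was 2.54 and passed (edgeR adjusted p = 0.0487). Of the alternative settings with all 4 mice, it was the only 1 under which the precursor share passed. With 1 mouse left out at a time the log2 fold was 1.29 to 2.04. Neutrophils made up 21.7% ± 3.78 (SD, n = 2) of the untreated and 50.1% ± 17.9 of the treated mice's cells. Within the B lineage, precursors made up 38.1% and 16.8% in untreated and 71.4% and 57.5% in treated mice. The log2 fold of the share was -0.77 ± 0.85 for mature B cells (edgeR adjusted p = 0.541), -1.23 ± 0.94 for plasmacytoid dendritic cells (0.358) and 0.87 ± 0.50 for progenitors (0.281).

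**Figure D5:**
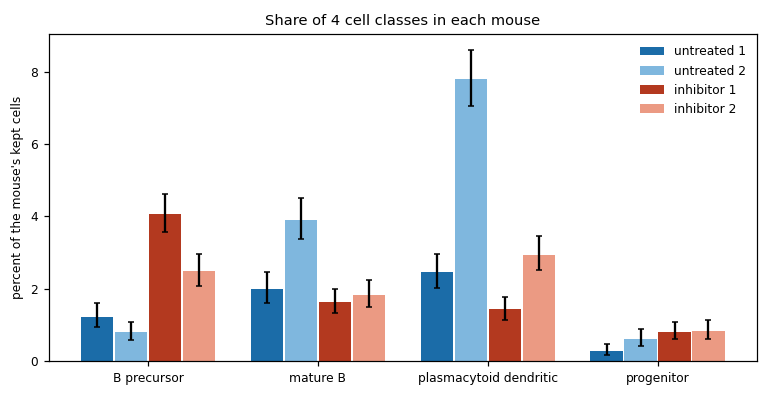
Percent of each mouse's kept cells in the 4 classes, with 95% Wilson intervals that cover counting error only. B precursors are at 1.23% and 0.79% in untreated and 4.07% and 2.48% in inhibitor-treated mice, and the plasmacytoid dendritic share reaches 7.78% in untreated mouse 2.

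In sums over all kept cells Vpreb3 was at 31.0 and 20.3 CPM in the untreated mice and 84.4 and 53.8 CPM in the treated ones, with no overlap (log2 fold 1.67 ± 0.34, unadjusted p = 0.00293, edgeR adjusted p = 0.473). DESeq2 called it (adjusted p = 0.00146). Rag1 (1.40 ± 0.45), Ebf1 (1.04 ± 0.31) and Pax5 (0.81 ± 0.27) were likewise higher in both treated mice with an edgeR adjusted p of 0.473 each, and Igll1 (1.69 ± 0.82, 0.540) and Vpreb1 (1.02 ± 0.60, 0.582) had wider errors. Dntt (-0.27 ± 0.49) and Rag2 (-0.02 ± 0.23), whose counts lay mainly outside the B lineage, were near 0. In such sums more cells of a type and more RNA per cell cannot be told apart; within B precursors the Vpreb3 fold was -0.14 ± 0.23. Over all cells edgeR called 0 of 21138 genes (0%), DESeq2 421, and 2122 (10%) had an unadjusted p under 0.05. With 1 mouse left out at a time, the folds over all cells were 1.15 to 2.05 for Vpreb3 and 0.72 to 1.87 for Rag1. They were 0.51 to 1.44 for Ebf1, 0.39 to 1.14 for Pax5 and 0.09 to 0.69 for Cd79b. In the B lineage as a whole Vpreb3 was at 989 and 589 against 1889 and 1447 CPM (1.04 ± 0.26, edgeR adjusted p = 0.466; DESeq2 adjusted p = 0.0281), beside 0 of 10939 genes called by edgeR (0%; 930, or 8.50%, with an unadjusted p under 0.05) and 56 by DESeq2. With 1 mouse left out at a time, the B lineage folds were -0.10 to 2.64 for Vpreb1, 0.20 to 3.90 for Igll1 and 0.74 to 1.40 for Vpreb3. The highest of each came without untreated mouse 1.

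The share of cells with a count, thinned to 2000 counts, was compared between groups in 28 pairs of gene and class by an exact two-sided permutation test over the 4 mice, whose smallest possible p is 0.333. Without any treatment difference, a pair reaches that value with a chance of up to 0.333. The test therefore cannot show a difference with these mice, and no conclusion is drawn from the pairs named here. The value of 0.333 was reached in 9 of the 28. Among them were Cd79b in plasmacytoid dendritic cells (mean 5.09% in untreated and 8.63% in treated mice), Cd79b in B precursors (87.8% and 80.6%) and Ebf1 in B precursors (60.2% and 54.6%). Rag1 in B precursors (27.5% and 25.4%, exact p = 1.0) and Dntt in plasmacytoid dendritic cells (26.9% and 24.9%, exact p = 0.667) did not reach it.

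Across 36 sums of 9 classes with at least 30 cells in each mouse, Vpreb1 and Igll1 varied together (Pearson r = 0.97 of log2(CPM + 1)), as did Vpreb3 with Ebf1 (0.98) and Pax5 (0.98), while Dntt had r of 0.49 or less with every other member. The sums share mice and differ in depth, so these values are descriptions. Among 9458 other genes, those most like Igll1 were Rsph9 (0.92), Rsph1 (0.90) and Uchl1 (0.89), those most like Rag1 Uchl1 (0.95), Gfra1 (0.93) and Rsph9 (0.93), those most like Dntt Dctn6 (0.82), Fgfr1op2 (0.81) and Zfp131 (0.81), and among those most like Cd79a were 4930426D05Rik (0.97) and Iglv1 (0.95).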

How the data were processed

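Single-cell RNA libraries came from the CD45+ spinal cord cells of 4 mice, 2 untreated and 2 inhibitor-treated, all separate animals per the labels, on 1 run. The authors deposited a matrix of counts of 28482 genes in 25461 cells, with the hashtag in each column name; per the file name it had passed BD's DBEC correction, and the submitters' processing notes name the build GRCm38. Not given in these sources are the aligner, the use of strand and whether counts are molecules or reads. In 44 genes, none of them a member, no nonzero count was below 4, so such a gene is only listed at 0.

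Columns with more than 1 hashtag (3943), cells above 20% mitochondrial counts (1014) and 1248 likely doublets, called by the share of hashtag doublets among 50 nearest neighbours, were left out. Cells were clustered without the 10 members (2000 variable genes, 40 components, 20 neighbours, Leiden resolution 1.0) and a cluster was named where at least 3 markers were detected. Progenitors were taken from resolution 2.0, a choice made after the clusters were seen. Counts were summed per mouse and class with at least 10 cells and tested with edgeR 4.0.16 (filterByExpr, TMM, quasi-likelihood test, Benjamini-Hochberg threshold 0.05) in R 4.3.3, with DESeq2 1.42.0 as an alternative. Scripts were tested on simulated data. All members are described; of the gene lists and likeness rankings only the genes with the smallest p or highest correlation are named. Results of 1 gene that this rule names are not reported here. The replicate numbers do not pair the mice. Wilson intervals and the limits for counts of 0 (3 counts) cover counting error only. The members and lists were chosen with earlier results of these data known.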

Additional observations from a re-analysis of the deposited data

Results flagged for a closer look

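The 3943 columns with more than 1 hashtag were used in no comparison, and all 10 genes were counted there, above the limit that a count of 0 allows. Vpreb1 was counted in 26 of these columns (0.659%, against 0.493% of the kept cells), Igll1 in 14 (0.355% against 0.447%) and Vpreb3 in 156 (3.96% against 3.82%). Rag1 was counted in 28 (0.710% against 0.878%), Rag2 in 222 (5.63% against 3.77%) and Dntt in 103 (2.61% against 2.19%). Ebf1 was counted in 150 (3.804% against 3.054%), Pax5 in 161 (4.08% against 3.92%), Cd79a in 369 (9.36% against 7.38%) and Cd79b in 383 (9.71% against 7.55%). Igll1 and Rag1, counted in few of these columns, were detected in a smaller share of them than of the kept cells, and the other members in a larger one. Some of these differences were small, as for Vpreb3 and Pax5, and none was tested.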

How the results depend on the processing

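The cycling comparison kept the direction of all 10 members under every alternative except for Rag2 without 1 mouse (-0.12 to 1.13), and the calls of Igll1, Rag1, Ebf1, Pax5, Cd79a and Cd79b held under all of them. Vpreb1 and Vpreb3 lost theirs as given above; Vpreb1 also did with the 10 genes among the clustering genes (2.05, edgeR adjusted p = 0.0638), with doublet calls kept (2.10, 0.0778) and without the mouse block (1.43, 0.244). Leaving out 1 mouse gave 547 to 1060 called genes there.

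No paired relation was seen: same-numbered mice had correlations of deviations of -0.0978 to 0.0299 in 4 sets of sums. With the replicate block edgeR called 1 gene in B precursors, 3 in mature B cells, 2 in progenitors and 4 in the B lineage. Without a filter on low counts it called 8, 37, 27 and 229 in these, and 24 in plasmacytoid dendritic cells; Vpreb3 (adjusted p = 9.3e-05) and Igll1 (0.0361) were then among those of the B lineage. DESeq2 called 2 in mature B cells, 8 in plasmacytoid dendritic cells, 56 in the B lineage and 421 over all cells. Taking neutrophils, progenitors and erythroid cells out of the denominator made the precursor share pass (log2 fold 2.54), and no other setting with all mice did.

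Treatment folds near 0 changed sign. In B precursors Dntt (0.0095) and Pax5 (0.0221) did so without the filter, Vpreb3 (0.0092), Dntt (0.0314), Pax5 (0.1224) and Cd79a (0.0001) with doublet calls kept, and Vpreb3 (0.0239), Rag2 (0.0052), Pax5 (0.1182) and Cd79a (0.0056) at no more than 10% mitochondrial counts. At that limit Dntt in plasmacytoid dendritic cells was at 0.018 and no separate progenitor cluster was found; Rag2 over all cells was at 0.0111 with doublet calls kept. The cause was not tested.

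Leaving out 1 mouse at a time gave 0 to 97 called genes in B precursors, 2 to 27 in mature B cells, 1 to 80 in plasmacytoid dendritic cells, 10 to 31 in progenitors, 0 to 635 in the B lineage and 0 to 1594 over all cells. For the difference between B precursors and mature B cells it gave 0 to 15, and against plasmacytoid dendritic cells 1 to 301. The most calls came without untreated mouse 1 in B precursors, the B lineage and the last of these, without inhibitor-treated mouse 1 in mature B cells, without untreated mouse 2 in progenitors and otherwise without inhibitor-treated mouse 2. The progenitor share fold was 0.41 to 1.55 and passed without untreated mouse 2 (edgeR adjusted p = 0.0211). In B precursors the folds ranged from -1.36 to 0.49 for Vpreb1, -0.66 to 1.68 for Igll1, -0.30 to 0.0728 for Vpreb3, -0.60 to 0.39 for Rag2, -5.53 to 2.00 for Dntt, -0.35 to 0.21 for Pax5 and -0.32 to 0.0341 for Cd79a. For mature B cells they ranged from -0.21 to 0.35 for Ebf1, -0.19 to 0.73 for Pax5 and -0.0226 to 0.42 for Cd79a. In plasmacytoid dendritic cells they were -0.18 to 0.14 for Dntt and -0.12 to 0.49 for Cd79b, and in progenitors -0.14 to 0.84 for Cd79b. In the B lineage they were -0.10 to 2.64 for Vpreb1, -4.43 to 4.07 for Dntt and -0.19 to 0.0373 for Cd79b. Without untreated mouse 1 the B lineage folds were 2.64 for Vpreb1, 3.90 for Igll1 and 1.40 for Vpreb3. Over all cells they were -0.22 to 0.17 for Rag2 and -0.86 to 0.77 for Dntt. The difference between B precursors and mature B cells was -0.87 to 0.24 for Pax5. That against plasmacytoid dendritic cells was -0.20 to 1.09 for Rag2, -5.54 to 1.40 for Dntt and -0.87 to 0.0576 for Cd79b. The lowest Dntt value came without inhibitor-treated mouse 2, where only 1 treated precursor cell had a Dntt count. Where 1 mouse was left out, the lone mouse of its group is assumed to vary like the other group. Few cells limit Vpreb1, Igll1 and Dntt: their precursor counts came from 44, 52 and 11 cells.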

Other observations

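Plasmacytoid dendritic cells with a Dntt count differed in depth from those without. The 360 cells with Dntt had a median of 14118 counts, and Rag2 was detected in 23.3% of them. The 323 cells without Dntt had a median of 9527 counts, with Rag2 in 14.6%. The part of depth in this difference was not tested.

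The single cell of inhibitor-treated mouse 1 with 299 Dntt counts had 42123 counts in all, 10 of Trbc2 and the largest Rag2 count outside the 4 classes (10). It lay in a cluster led by Stmn1, Pclaf and Top2a. Outside the 4 classes, the largest Vpreb3 and Cd79b counts (49 and 38) were in 1 cell of the erythroid cluster of untreated mouse 1, which had 19 counts of Il7r.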
